A study of Mus musculus with 6 samples.

Results

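The 29 genes described here govern how a cell makes, takes up, stores and exports cholesterol. They were taken by name from the gene table, where each of the 29 symbols has a single row among 54532 genes. They comprise 5 regulators of sterol sensing, 17 enzymes of synthesis, 2 genes of uptake and transport, 3 of efflux and 2 of storage and oxysterol production. The libraries came from primary mouse macrophages labelled METRNL-/- (KO) or METRNL+/+ (WT), with 3 libraries per genotype. *Metrnl* encodes the secreted protein meteorin-like. Macrophages of both genotypes had been cultured and then exposed to the fungus *Candida albicans* for 6 h, so no library is without the fungus and the comparison is KO against WT under challenge. The sources used here do not give the strain, age or sex of the mice, the tissue of origin or the structure of the knockout allele. The origin of the replicates (separate mice or 1 culture) is not stated either, so p-values speak only for the spread among these libraries, and that spread may be technical.

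When membrane cholesterol is low, the escort protein SCAP carries the transcription factor SREBP2 out of the endoplasmic reticulum, SREBP2 is cut free, and the genes of synthesis and uptake are switched on. INSIG proteins hold SCAP back when sterol is plentiful. In that state oxysterols activate the nuclear receptors LXR, which switch on export of cholesterol through ABCA1, ABCG1 and apolipoprotein E. Macrophages carry a heavy sterol load from engulfed cells and lipoproteins, and are known for strong LXR-driven efflux and for storing surplus as esters.

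The table holds FPKM, a read density scaled for gene length and depth, so levels may be compared between genes. Whole reads behind the values came to between 14772746 and 15724897 per KO library and between 11026529 and 14309247 per WT library. *Metrnl* itself stood at 51.2, 63.6 and 62.8 FPKM in KO, against 93.5, 63.2 and 69.8 FPKM in WT, and did not pass the test (limma, adjusted p = 0.181). This value, a total over the gene, cannot check the labels, and KO here means the libraries labelled so. Of the 11689 genes that averaged 0.5 FPKM or more, 1833 were called higher and 1445 lower in KO (limma on log2(FPKM + 1), Benjamini-Hochberg adjusted p below 0.05), and 542 and 1161 after rescaling to TPM. The replicate 1 libraries stood apart from replicates 2 and 3 of both genotypes. In recovered reads, the chi-square per degree of freedom was 2.30 between KO replicates 2 and 3 and 7.10 between WT replicates 2 and 3, while pairs with a replicate 1 library lay between 39.6 and 59.4.

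Of the 29 genes, 28 passed the filter on low values. In KO, 2 of the 28 were called higher and 7 were called lower, which is 7.14% and 25.0% of them. The matching shares over all genes tested were 15.7% higher and 12.4% lower. The genes called higher were *Abca1*, the cholesterol exporter, and *Soat1*, the esterifying enzyme. The genes called lower were the synthesis genes *Hmgcs1*, *Pmvk*, *Idi1* and *Fdft1*, the sterol carrier gene *Stard4*, the ubiquitin ligase gene *Mylip*, and *Apoe*. Markers of B cells, T and NK cells and dendritic cells were all or mostly lower in KO as well. Of 12 macrophage markers 5 were called higher and 1 lower, and values are given after the members. In bulk RNA, fewer cells of a type and less RNA per cell cannot be told apart. The median log2 fold change (KO minus WT, from log2(FPKM + 1)) was -0.08 over the 28 genes and 0.03 over all genes tested. All 3 KO values lay above all 3 WT values for 3 members and below them for 9, against 25.7% and 19.9% of all genes tested.

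**Figure D1:**
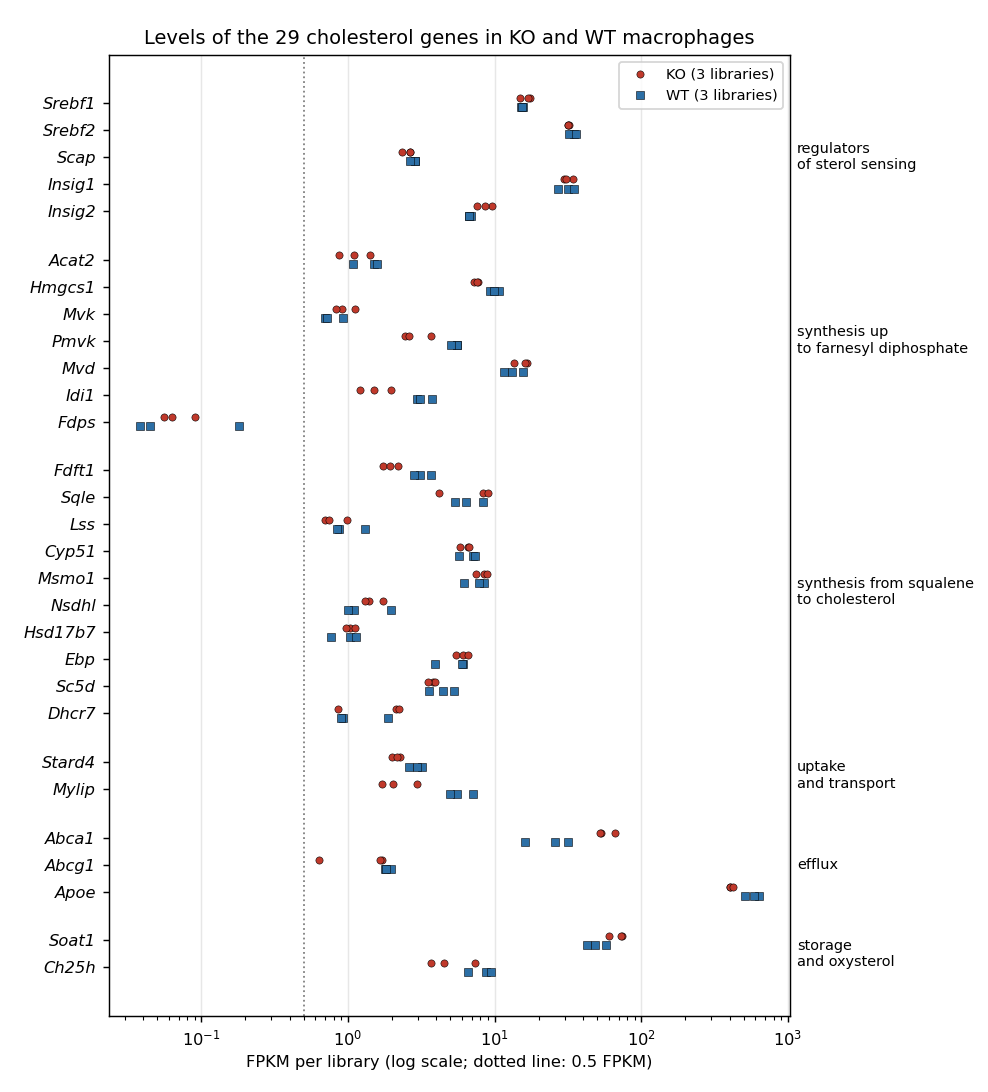
FPKM of each of the 29 genes in every library on a logarithmic axis, with KO libraries as circles above WT libraries as squares in each row, grouped by role. *Apoe* stands alone near the top of the range and *Fdps* alone below the dotted line at 0.5 FPKM that marks the filter.

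Levels spanned more than 3 orders of magnitude, as the plot of levels by library shows. *Apoe* averaged 494 FPKM over the 6 libraries and stood clear of every other member. *Soat1* at 59.2 and *Abca1* at 40.9 FPKM followed, with library values that overlapped each other, then *Srebf2* at 33.1 and *Insig1* at 31.4 FPKM, which overlapped too. Of the synthesis enzymes *Mvd* was highest, at 14.5 FPKM. *Mvk* at 0.866 and *Lss* at 0.904 FPKM were the lowest members tested. On the log2(FPKM + 1) scale, log2 fold changes at low FPKM are smaller than the ratios of means imply. This also holds for called members such as *Idi1* and *Mylip*. *Fdps*, the gene of farnesyl diphosphate synthase, had 13 reads over the KO libraries and 14 over the WT libraries and was not tested. In the GENCODE M21 annotation, 26.7% of the exon bases of *Fdps* also lie in exons of *Gm43738* on the same strand.

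None of the 5 regulators of sterol sensing was called (limma; 1, *Insig2*, at an unadjusted p below 0.05 and with voom). *Srebf2* (ENSMUSG00000022463, chromosome 15, 82147181 to 82205379, plus strand, GRCm38), the gene of the factor that drives synthesis, had 31.9, 32.0 and 31.6 FPKM in KO, against 34.9, 32.4 and 35.7 FPKM in WT. The KO values all lay below the WT values by a small margin, and the log2 fold change was -0.11 with a 95% confidence interval of -0.26 to 0.05 (limma, adjusted p = 0.264). It was called lower only after quantile normalization (log2 fold change -0.28, limma adjusted p = 0.018). *Srebf1*, whose product drives fatty acid genes and which is itself an LXR target, averaged 16.4 ± 1.33 FPKM in KO and 15.3 ± 0.269 FPKM in WT (SD, n = 3 each). *Scap* averaged 2.55 ± 0.182 FPKM in KO and 2.78 ± 0.128 FPKM in WT.

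The INSIG genes differ in control, since *Insig1* is a strong SREBP target and *Insig2* is largely not. *Insig1* had 34.4, 29.8 and 30.6 FPKM in KO, against 31.6, 27.1 and 34.9 FPKM in WT, so the groups overlapped (log2 fold change 0.02, 95% confidence interval -0.24 to 0.29). *Insig2* had 7.56, 9.63 and 8.63 FPKM in KO, against 6.72, 6.90 and 6.65 FPKM in WT. All KO values of *Insig2* lay above all WT values, but it did not pass the threshold (log2 fold change 0.30 ± 0.09 SE in limma, adjusted p = 0.0512). Adjusted p values of *Insig2* came to 0.0433 under a 2 FPKM filter, 0.0428 with voom on recovered reads, and 0.0213 without KO replicate 1.

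Early steps of synthesis build isoprene units from acetyl-CoA. Of the 16 tested synthesis enzymes 4 (25%) were lower in KO and 0 were higher, against 12.4% and 15.7% of all genes tested. The counts were the same at an unadjusted limma p below 0.05 and with voom. Up to farnesyl diphosphate 3 of 6 tested genes were lower, with a median log2 fold change of -0.27. *Hmgcs1* (ENSMUSG00000093930, chromosome 13, 119690379 to 119708260, plus strand), the synthase that makes HMG-CoA, had 7.18, 7.68 and 7.64 FPKM in KO, against 10.7, 9.30 and 9.93 FPKM in WT. The groups did not overlap, and the log2 fold change was -0.37 ± 0.07 SE (limma, adjusted p = 0.0138). *Pmvk* (chromosome 3, 89454541 to 89469013, plus strand), phosphomevalonate kinase, had 3.70, 2.44 and 2.61 FPKM in KO, against 5.57, 5.50 and 5.04 FPKM in WT. Every KO library was lower than every WT library, by 1.84-fold in the means (log2 fold change -0.71 ± 0.13 SE in limma, adjusted p = 0.0103). *Idi1* (chromosome 13, 8885501 to 8892451, plus strand), the isomerase that readies isoprene units for joining, had 1.96, 1.21 and 1.504 FPKM in KO, against 2.97, 3.10 and 3.72 FPKM in WT. It was 2.09-fold lower in KO with no overlap (log2 fold change -0.74 ± 0.13 SE in limma, adjusted p = 0.00968). The values of *Idi1* rest on 234 reads in KO and 458 in WT, and the processed pseudogene *Gm13502*, at a mean of 0.44 FPKM, is identical to its transcript over 684 bases, which leaves the placing of such reads uncertain.

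The other tested enzymes of the same stretch were not called, which does not show that they were unchanged. *Mvk*, mevalonate kinase, which acts just before *Pmvk*, averaged 0.952 ± 0.152 FPKM in KO and 0.779 ± 0.123 FPKM in WT (SD, n = 3 each). *Mvd*, which acts just after it, averaged 15.5 ± 1.66 FPKM in KO and 13.5 ± 2.097 FPKM in WT, with overlapping groups and a log2 fold change of 0.19 (95% confidence interval -0.12 to 0.50). *Acat2*, the cytosolic thiolase that acts before *Hmgcs1*, averaged 1.13 ± 0.272 FPKM in KO and 1.38 ± 0.266 FPKM in WT. Its log2 fold change was -0.16 (95% confidence interval -0.49 to 0.16). *Acat3*, at 0.239 FPKM, matches the *Acat2* transcript at 97.7% over 1477 bases. *Tcp1*, a chaperonin gene at 24.1 FPKM, matches it at 98.7% over 445 bases, so the placing of reads there is uncertain. No direct test of the difference between these enzymes and the lower ones was made.

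The promoter windows of *Hmgcs1* and *Idi1* are shown because both are textbook SREBP2 targets and both were lower in KO. Each runs from 250 bases before to 50 bases after the annotated start (RefSeq, GRCm38.p6), 5′ to 3′ on the gene's strand, chr13:119690101-119690400 for *Hmgcs1* and chr13:8885356-8885655 for *Idi1*. Capitals mark the sterol regulatory element TCACNCCAC and the NF-Y box CCAAT, on either strand (GTGGNGTGA and ATTGG when on the other).
Hmgcs1: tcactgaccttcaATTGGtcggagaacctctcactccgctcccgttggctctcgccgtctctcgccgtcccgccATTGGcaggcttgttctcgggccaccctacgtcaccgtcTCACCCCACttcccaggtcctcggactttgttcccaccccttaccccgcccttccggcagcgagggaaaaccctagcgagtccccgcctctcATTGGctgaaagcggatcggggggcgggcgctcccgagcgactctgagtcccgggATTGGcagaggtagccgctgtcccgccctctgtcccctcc
Idi1: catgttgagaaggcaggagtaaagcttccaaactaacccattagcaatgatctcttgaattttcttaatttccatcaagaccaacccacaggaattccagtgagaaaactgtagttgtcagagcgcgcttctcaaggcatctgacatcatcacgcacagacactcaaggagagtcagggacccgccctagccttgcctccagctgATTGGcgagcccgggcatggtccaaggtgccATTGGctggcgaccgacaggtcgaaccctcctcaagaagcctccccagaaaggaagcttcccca
Of the 29 members, 24 had promoter entries. The letters TCACNCCAC occurred in 1 of those 24 genes, *Hmgcs1*, and in 1.44% of all 27025 genes with an entry. The NF-Y box, which binds a partner factor of SREBP2, occurred in 19 of the 24 and in 41.1% of all genes. These are matches of letters and not measured binding. Sites that differ from these letters were not counted, so the search cannot show that a window lacks a sterol regulatory element.

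From squalene onward, 10 genes were tested, of which 1 (10%) was called lower, against 12.4% of all genes tested. Their median log2 fold change was 0.05. *Fdft1* (ENSMUSG00000021273, chromosome 14, 63145150 to 63179578, minus strand) encodes squalene synthase, the first enzyme committed to sterols. It had 1.74, 1.95 and 2.18 FPKM in KO, against 3.10, 3.66 and 2.83 FPKM in WT. The KO libraries were all lower, 1.64-fold in the means (log2 fold change -0.50 ± 0.10 SE in limma, adjusted p = 0.0155). Of its exon bases, 18.3% overlap exons of *Ctsb* on the opposite strand, a lysosomal protease gene at a mean of 861 FPKM that was itself called higher in KO (limma, adjusted p = 0.0188). Whether counting used strand is not given in the sources used here, and the part of that overlap in the value of *Fdft1* was not tested.

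The remaining 9 genes of this stretch overlapped between genotypes. *Cyp51*, the lanosterol demethylase, averaged 6.33 ± 0.483 FPKM in KO and 6.72 ± 0.907 FPKM in WT (SD, n = 3 each). *Msmo1*, which acts on the next methyl groups, averaged 8.26 ± 0.750 FPKM in KO and 7.48 ± 1.18 FPKM in WT. *Sc5d*, a desaturase near the end of the pathway, averaged 3.74 ± 0.183 FPKM in KO and 4.43 ± 0.839 FPKM in WT. *Hsd17b7* averaged 1.04 ± 0.0755 FPKM in KO and 0.975 ± 0.188 FPKM in WT, and *Nsdhl*, its neighbour in the demethylation steps, averaged 1.48 ± 0.222 FPKM in KO and 1.36 ± 0.529 FPKM in WT. Their adjusted p values lay above the threshold, and the 95% confidence interval of *Cyp51*, from -0.33 to 0.19, gives the size of difference that its values allow.

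*Sqle*, squalene epoxidase, a rate-controlling step, and *Dhcr7*, a reductase at the end of the pathway, varied more within a genotype than between them. *Sqle* had 4.20, 8.27 and 9.01 FPKM in KO, against 8.29, 5.39 and 6.42 FPKM in WT. *Dhcr7* had 0.860, 2.13 and 2.24 FPKM in KO, against 1.89, 0.920 and 0.893 FPKM in WT. In both genes KO replicate 1 was the lowest KO library and WT replicate 1 the highest WT library, which set the groups across each other. The log2 fold changes were 0.04 for *Sqle* and 0.28 for *Dhcr7*, with 95% confidence intervals of -0.61 to 0.70 and -0.37 to 0.93 (limma, adjusted p = 0.922 and 0.479).

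The same order of libraries, seen after the values were known, held for 9 members. They were *Hmgcs1*, *Sqle*, *Lss*, *Msmo1*, *Ebp*, *Dhcr7*, *Stard4*, *Abcg1* and *Soat1*, of which 6 are among the 16 tested synthesis enzymes. Over all genes tested it held for 22.2%. The median synthesis enzyme stood at 85.8%, 97.0% and 99.1% of its WT mean in KO replicates 1 to 3, against 107%, 89.9% and 94.8% in WT replicates 1 to 3. Without both replicate 1 libraries, a choice made after seeing the data, 5 members were called higher and 7 lower, against 19.3% and 16.3% of all genes tested. *Sqle* (log2 fold change 0.48, limma adjusted p = 0.0251), *Dhcr7* (0.74, adjusted p = 0.00684) and *Insig2* (0.38, adjusted p = 0.0242) were then called higher, and *Stard4* lost its call (adjusted p = 0.121). Only 2 libraries per genotype remain in that fit, and they are the most alike of each genotype.

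**Figure D2:**
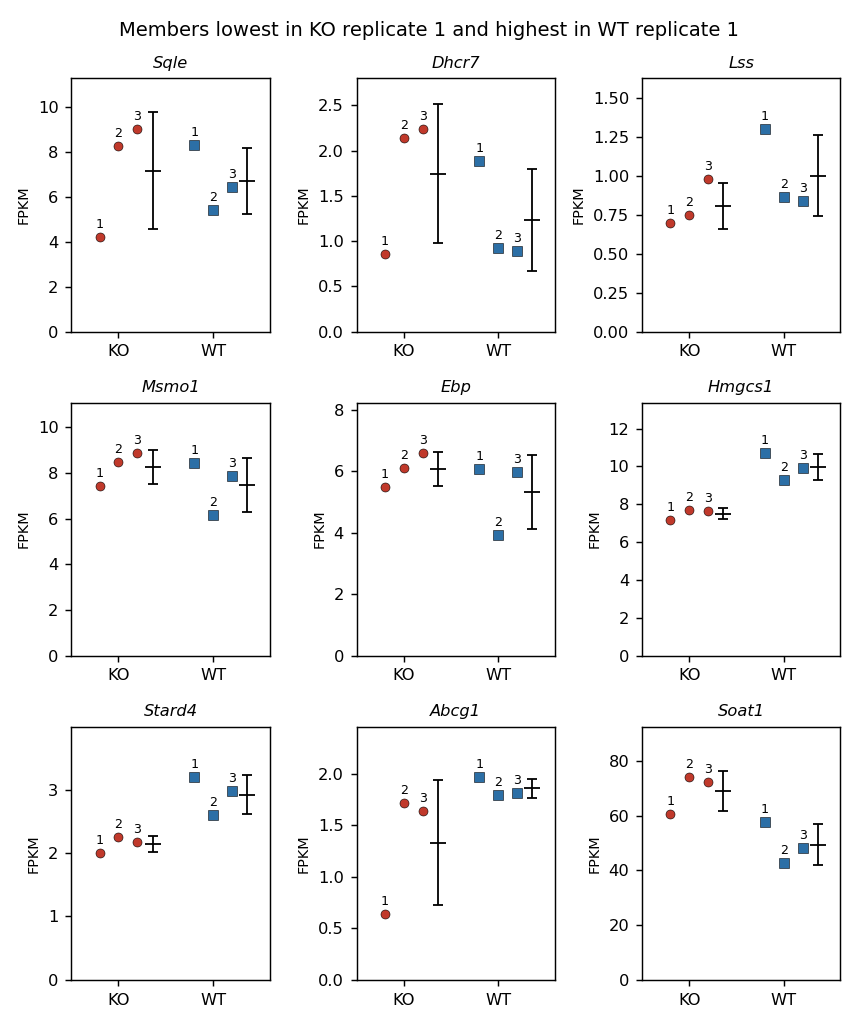
FPKM in each library, numbered by replicate, for the 9 members lowest in KO replicate 1 and highest in WT replicate 1, with KO left of WT and the mean ± SD (n = 3) beside the points. *Sqle* and *Dhcr7* show the order most plainly, with replicate 1 of each genotype beyond the other 2 libraries of that genotype.

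Both genes grouped under uptake and transport were lower in KO. *Mylip* (ENSMUSG00000038175, chromosome 13, 45389742 to 45412022, plus strand) encodes a ubiquitin ligase, switched on by LXR, that sends lipoprotein receptors to be degraded. It had 2.97, 2.02 and 1.71 FPKM in KO, against 5.57, 4.99 and 7.09 FPKM in WT. It had the lowest log2 fold change of the 28 genes, -1.10 ± 0.18 SE, a 2.63-fold lower mean, and its groups did not overlap (limma, adjusted p = 0.00689). *Stard4*, a carrier that moves sterol between membranes and a SREBP2 target, had 2.001, 2.25 and 2.17 FPKM in KO, against 3.19, 2.60 and 2.97 FPKM in WT. The groups of *Stard4* were separate but close (log2 fold change -0.32 ± 0.09 SE in limma, adjusted p = 0.0365), and the call was lost under 10 of 16 alternatives, with an adjusted p of up to 0.132.

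Efflux genes went in opposite directions. *Abca1* (ENSMUSG00000015243, chromosome 4, 53030787 to 53159895, minus strand), which hands cholesterol to lipid-poor apolipoprotein A-I, had 66.5, 53.0 and 52.3 FPKM in KO, against 16.1, 31.6 and 25.7 FPKM in WT. Every KO library was above every WT library, by 2.35-fold in the means (57.3 ± 7.995 FPKM in KO and 24.4 ± 7.83 FPKM in WT, SD, n = 3 each). The log2 fold change was 1.24 ± 0.24 SE (limma, adjusted p = 0.0132), and 0.87 without both replicate 1 libraries (adjusted p = 0.00644), where the lowest WT and the highest KO library are absent. *Apoe* (ENSMUSG00000002985, chromosome 7, 19696109 to 19699188, minus strand), the secreted acceptor, had 406, 402 and 420 FPKM in KO, against 639, 510 and 585 FPKM in WT. It was 1.41-fold lower in KO with no overlap (log2 fold change -0.49 ± 0.11 SE in limma, adjusted p = 0.0182). *Apoe* kept its call under 11 of 16 alternatives. Its adjusted p was 0.0869 with the replicate number as a block and 0.0576 with no filter. It was 0.0745 without KO replicate 2, 0.0650 without KO replicate 3 and 0.0663 without WT replicate 3.

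*Abcg1*, which exports cholesterol to mature lipoproteins, had 0.634, 1.71 and 1.64 FPKM in KO, against 1.96, 1.80 and 1.81 FPKM in WT. All KO values were lower, but KO replicate 1 was far below the others, and the gene did not pass (log2 fold change -0.33 ± 0.20 SE in limma, adjusted p = 0.273). Without KO replicate 1 its log2 fold change was -0.09. Over the 5 textbook LXR targets among the members, *Abca1*, *Abcg1*, *Apoe*, *Mylip* and *Srebf1*, 1 was called higher and 2 lower, with a median log2 fold change of -0.33. The middle gene is *Abcg1*, which did not pass, and the median was -0.093 without KO replicate 1 and -0.066 without both replicate 1 libraries. Over the 19 tested SREBP2 targets 0 were called higher and 5 (26.3%) lower, against 15.7% and 12.4% of all genes tested. These targets are the 16 tested synthesis enzymes with *Srebf2*, *Insig1* and *Stard4*, so 4 of the 5 calls are those of the synthesis enzymes given above. The median log2 fold change of the 19 was -0.07. That median was -0.16 in TPM, between -0.13 and -0.027 when single libraries were left out, and 0.0051 without both replicate 1 libraries.

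**Figure D3:**
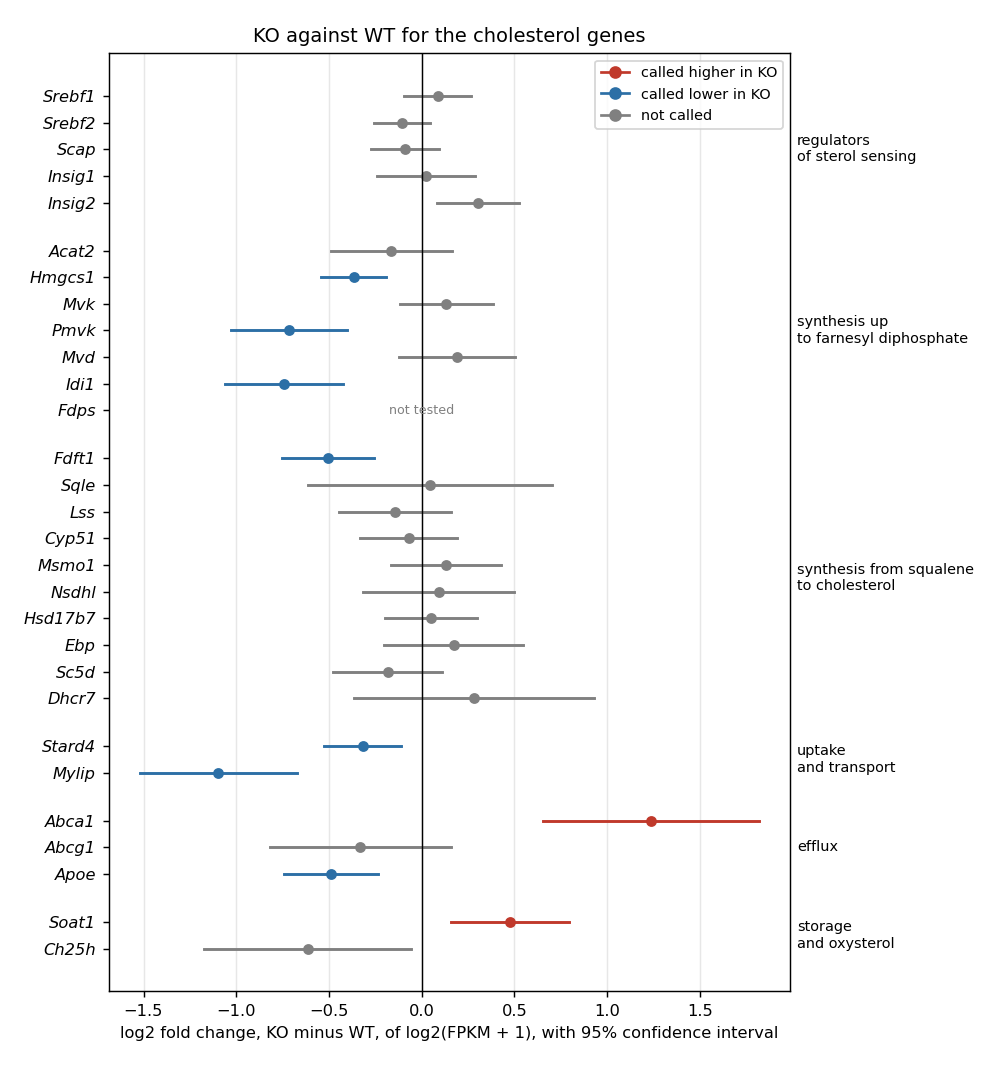
Log2 fold change, KO minus WT, of log2(FPKM + 1) for each member, with its 95% confidence interval from limma, coloured by whether it was called. *Abca1* lies furthest right at 1.24 and *Mylip* furthest left at -1.10, and both are LXR targets.

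The windows of *Abca1* and *Mylip* are shown because these LXR targets had the largest changes among the 29 members, in opposite directions. They lie at chr4:53159846-53160145 on the minus strand and chr13:45389492-45389791 on the plus strand (RefSeq, GRCm38.p6), and capitals mark the NF-Y box.
Abca1: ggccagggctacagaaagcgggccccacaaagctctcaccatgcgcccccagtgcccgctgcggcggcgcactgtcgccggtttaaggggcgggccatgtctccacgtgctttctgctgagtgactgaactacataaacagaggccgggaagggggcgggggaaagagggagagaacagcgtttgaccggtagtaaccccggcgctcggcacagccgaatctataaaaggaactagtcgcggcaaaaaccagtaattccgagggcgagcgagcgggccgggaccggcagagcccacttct
Mylip: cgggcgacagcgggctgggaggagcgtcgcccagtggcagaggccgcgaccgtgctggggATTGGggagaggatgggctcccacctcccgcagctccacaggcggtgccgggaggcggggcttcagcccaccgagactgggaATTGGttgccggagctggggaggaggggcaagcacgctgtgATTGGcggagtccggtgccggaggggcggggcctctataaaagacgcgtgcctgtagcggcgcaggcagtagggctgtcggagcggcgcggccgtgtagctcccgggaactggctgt
The window of *Mylip* holds 3 NF-Y boxes, while that of *Abca1* holds no match to the letters searched. The binding site of LXR was not among those letters, so the search cannot show whether either window holds one. A further pattern, GAAANNGAA, part of the interferon-stimulated response element, occurred in 2 of the 24 genes with entries, *Apoe* and *Ebp*, against 9.76% of all genes, and the window of *Ch25h* held none.

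Storage and oxysterol genes also differed from each other. *Soat1* (chromosome 1, 156424525 to 156474331, minus strand), which esterifies cholesterol for lipid droplets, had 60.7, 74.0 and 72.2 FPKM in KO, against 57.6, 42.7 and 48.1 FPKM in WT. Its groups were separate by a narrow margin, with a 1.39-fold higher mean in KO (log2 fold change 0.48 ± 0.13 SE in limma, adjusted p = 0.0403). The call was lost under 8 of 16 alternatives, among them TPM (adjusted p = 0.248), quantile normalization (0.241) and leaving out KO replicate 2 (0.128), KO replicate 3 (0.126), WT replicate 2 (0.104) or WT replicate 3 (0.114). *Ch25h* makes 25-hydroxycholesterol, an oxysterol that restrains SREBP2 and is known as an interferon-inducible product of macrophages. It had 7.35, 3.71 and 4.498 FPKM in KO, against 6.61, 8.74 and 9.47 FPKM in WT. KO replicate 1 lay within the WT range, and the gene did not pass (log2 fold change -0.61 ± 0.23 SE in limma, adjusted p = 0.0969).

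Without KO replicate 1 *Ch25h* was called lower (log2 fold change -0.85, limma adjusted p = 0.0197), and without both replicate 1 libraries too (-0.99, adjusted p = 0.00444). It also passed in TPM (adjusted p = 0.0317). Genes induced by type I interferon had a like order of libraries. Of 21 tested, 16 (76.2%) were called lower (limma), against 12.4% of all genes tested, and 17 with voom. The median gene of that list stood at 57.8%, 26.1% and 24.8% of its WT mean in KO replicates 1 to 3, against 70.7%, 119% and 112% in WT replicates 1 to 3. The part of these genes in the values of *Ch25h* was not tested.

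**Figure D4:**
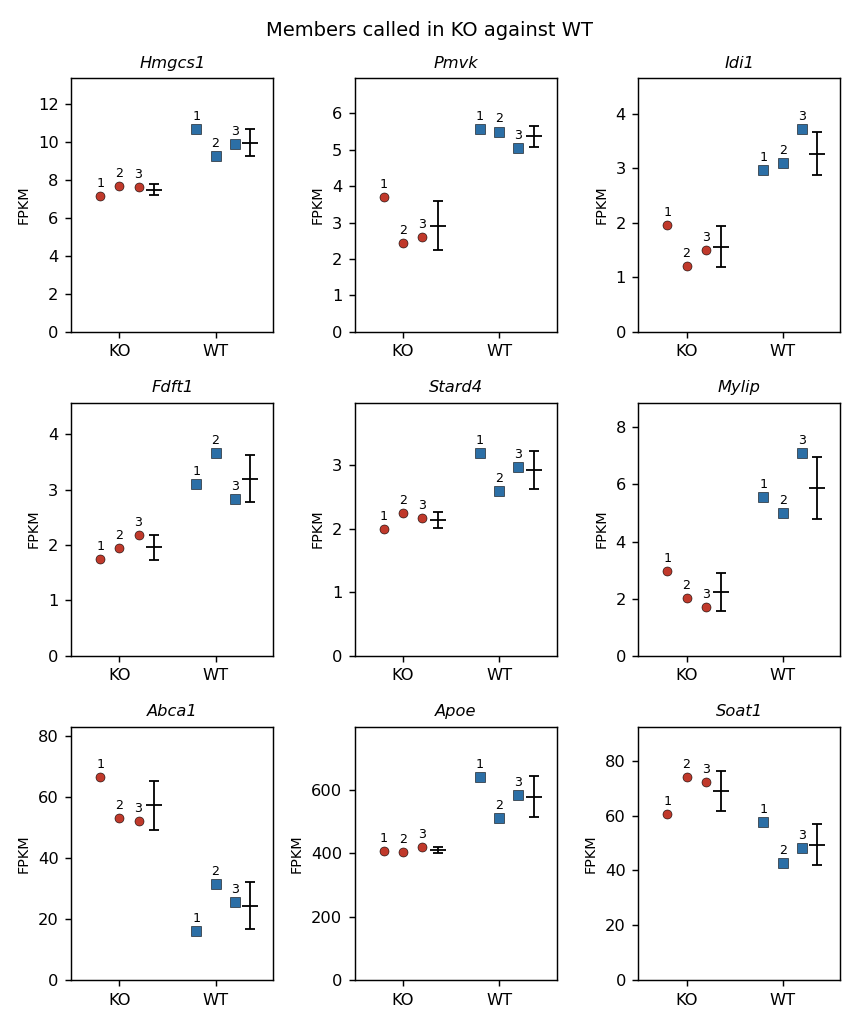
FPKM in each library, numbered by replicate, for the 9 called members, with KO left of WT on axes that start at 0 and the mean ± SD (n = 3) beside the points. In each panel the KO points and the WT points do not overlap, and the gap is widest relative to the level in *Abca1* and *Mylip*.

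Markers of other cells and of macrophages moved with the genotype, and they stand beside every member, lower or higher. For the counts that follow, the shares over all genes tested were 15.7% called higher and 12.4% called lower. All 11 tested B cell markers were called lower, with summed levels between 30.0 and 38.5 FPKM in KO and between 566 and 729 FPKM in WT. Likewise 5 of 5 T and NK cell markers (sums of 3.61 to 4.43 FPKM in KO and 12.6 to 15.2 FPKM in WT), 6 of 8 dendritic cell markers (42.9 to 55.3 FPKM in KO and 148 to 239 FPKM in WT), 4 of 4 mast cell markers (0.993 to 1.39 FPKM in KO and 6.54 to 8.08 FPKM in WT) and 4 of 7 mesothelial and fibroblast markers (7.33 to 9.33 FPKM in KO and 16.1 to 19.0 FPKM in WT) were lower. Of 8 neutrophil markers 2 were lower (sums of 686 to 802 FPKM in KO and 916 to 1236 FPKM in WT). Of 12 macrophage markers 5 were called higher and 1 lower (sums of 9004 to 9700 FPKM in KO and 5080 to 5914 FPKM in WT). No marker in these lists was at 0 in all 6 libraries. Lymphocytes and dendritic cells also make sterols. The part of the mix of cells in the members' values, lower or higher, was not tested. The labels' extraction text names retina, and 10 retinal markers summed to 0.932 to 1.40 FPKM in KO and 0.771 to 0.865 FPKM in WT. Of 13 tested targets of the stress factor ATF4, 11 were called higher, and their part in the members' values was not tested.

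Around the 29 members, 4 lists of related sterol and lipid genes held 53 tested genes, of which 12 were called higher and 7 lower in KO. These are 22.6% and 13.2%, against 15.7% and 12.4% of all genes tested. The median log2 fold change of the 53 was 0.09. In the machinery that processes SREBP and degrades or completes sterol enzymes, 3 of 17 genes (17.6%) were higher and 2 (11.8%) lower. *Erlin1* and *Erlin2*, whose products form a ring in the endoplasmic reticulum that restrains SREBP and takes part in sterol-driven degradation, were both higher. *Erlin1* had 4.82, 5.43 and 5.15 FPKM in KO, against 2.44, 2.36 and 2.69 FPKM in WT, with no overlap (log2 fold change 0.81 ± 0.08 SE in limma, adjusted p = 0.0011). *Erlin2* averaged 7.92 ± 0.0754 FPKM in KO and 5.41 ± 0.0704 FPKM in WT (SD, n = 3 each; limma, adjusted p = 0.00255), though not past the threshold in TPM (0.071). *Lbr*, which holds a sterol reductase at the nuclear envelope, was lower, at 2.76 ± 0.263 FPKM in KO and 4.72 ± 0.321 FPKM in WT.

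In sterol trafficking and uptake, 3 of 15 genes (20%) were higher and 1 (6.67%) lower, against 15.7% and 12.4% of all genes tested. *Lrp1*, a large endocytic receptor for apolipoprotein E remnants, had 122, 122 and 124 FPKM in KO, against 76.7, 84.4 and 71.7 FPKM in WT, a 1.58-fold difference without overlap (limma, adjusted p = 0.0026). *Npc1*, which moves cholesterol out of the lysosome, averaged 47.0 ± 4.97 FPKM in KO and 31.2 ± 5.63 FPKM in WT (limma, adjusted p = 0.0282). Its partner *Npc2* had 103, 96.4 and 98.1 FPKM in KO, against 104, 92.3 and 101 FPKM in WT (log2 fold change 0.00, limma adjusted p = 0.978; named after its values were seen). *Osbpl2*, an oxysterol-binding protein gene, was 1.72-fold higher, and *Lrp8*, a receptor gene of the lipoprotein receptor family, was 1.77-fold lower. Calls were lost under 8 of 16 alternatives for *Npc1* (adjusted p of up to 0.162), under 9 of 15 for *Lrp8* (up to 0.109) and under 5 of 16 for *Osbpl2* (up to 0.0976).

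A list of further LXR targets, oxysterol enzymes and the LXR genes themselves gave 4 (40%) higher and 1 (10%) lower of 10 tested. The shares over all genes tested were 15.7% and 12.4%. *Smpdl3a*, a phosphodiesterase gene known from human cells as an LXR target, had 149, 144 and 148 FPKM in KO, against 61.0, 59.5 and 63.4 FPKM in WT. Its 2.40-fold difference was far larger than the spread of either group (log2 fold change 1.25 ± 0.06 SE in limma, adjusted p = 1.25e-04). *Lpl*, the secreted lipase that frees fatty acids from lipoproteins, averaged 70.7 ± 1.14 FPKM in KO and 38.2 ± 5.28 FPKM in WT (SD, n = 3 each; limma, adjusted p = 0.00239). *Plin2*, which coats lipid droplets, and *Arl4c*, a small GTPase gene linked to ABCA1 traffic, were 1.39-fold and 1.32-fold higher, with calls lost under 8 and 7 of 16 alternatives (limma, adjusted p of up to 0.261 for *Plin2* and 0.288 for *Arl4c*). *Apoc1*, next to *Apoe* in the genome, was lower, at 0.349 ± 0.320 FPKM in KO and 2.37 ± 0.571 FPKM in WT, on 11 reads in KO and 73 in WT. The receptor genes did not pass: *Nr1h2* had 32.6, 29.7 and 28.5 FPKM in KO, against 32.1, 28.9 and 33.2 FPKM in WT, and *Nr1h3* stayed below 1 FPKM in each library (both named after their values were seen).

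**Figure D5:**
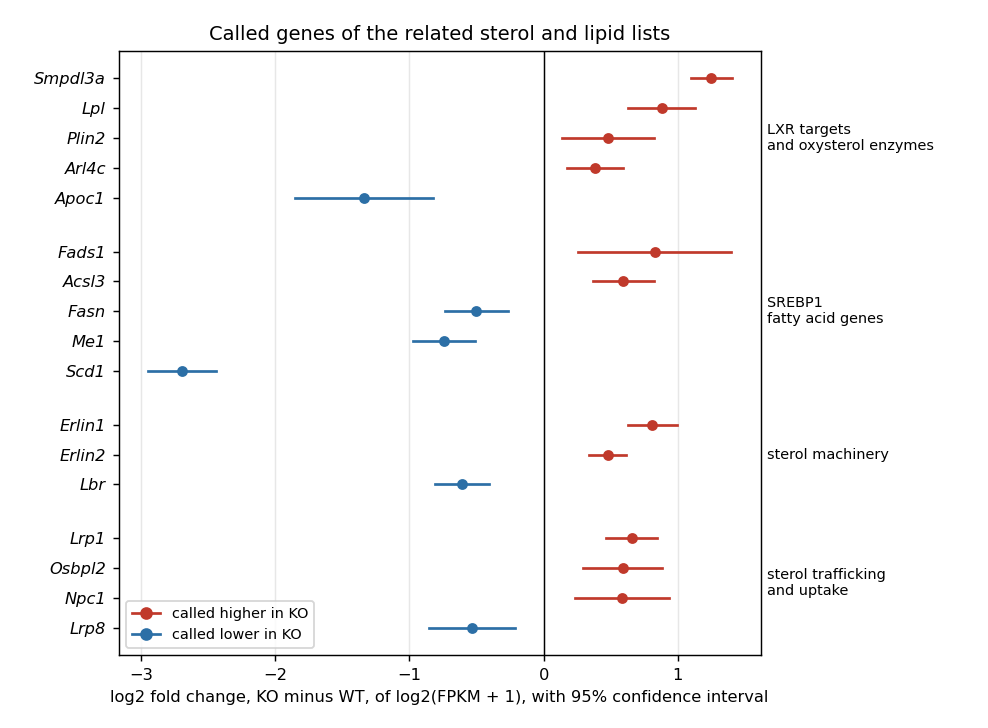
Log2 fold change, KO minus WT, of log2(FPKM + 1) with 95% confidence intervals for the called genes of the 4 related lists that are named in the text. *Scd1* lies furthest left at -2.69 and *Smpdl3a* furthest right at 1.25.

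Fatty acid genes under SREBP1 were split, with 2 of 11 (18.2%) higher and 3 (27.3%) lower, against 15.7% and 12.4% of all genes tested. *Scd1*, the desaturase that makes oleate and a joint target of SREBP1 and LXR, had 1.00, 1.19 and 1.26 FPKM in KO, against 11.9, 14.9 and 12.1 FPKM in WT. It was 11.3-fold lower in KO with a wide gap between the groups (log2 fold change -2.69 ± 0.11 SE in limma, adjusted p = 6.58e-05). *Me1*, which supplies NADPH, and *Fasn*, the fatty acid synthase gene, were 2.09-fold and 1.57-fold lower. *Fads1* averaged 11.3 ± 3.06 FPKM in KO and 5.85 ± 1.48 FPKM in WT, and *Acsl3*, which activates fatty acids for lipid droplets, averaged 4.25 ± 0.408 FPKM in KO and 2.47 ± 0.255 FPKM in WT (SD, n = 3 each). *Fads1* lost its call under 8 of 16 alternatives, with an adjusted p of up to 0.139. *Fasn* lost it under 4 of 16 (up to 0.0769) and *Acsl3* under 2 of 16 (up to 0.0554).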

How the data were processed

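RNA-seq of 3 KO and 3 WT macrophage libraries was analysed, with groups and replicate numbers from the sample titles. Per the labels' protocols, Trizol RNA went into Illumina TruSeq libraries. The submitters' processing notes name GRCm38 (mm10). Aligner, counter and strand setting: not given in the sources used here. FPKM and gene lengths of 54532 genes were deposited. Multiplied by length, 100% of the FPKM above 0 came out as whole reads in units of the library's smallest step, within 0.05. The depth factors behind the FPKM are proportional to median-of-ratios size factors of the recovered reads, and not to read totals.

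The test was limma 3.58.1 (R 4.3.3) on log2(FPKM + 1), with genotype alone, eBayes with trend and Benjamini-Hochberg adjustment over the 11689 genes that averaged 0.5 FPKM or more. Folds are ratios of mean FPKM. Symbols with several rows take the highest mean. The members and lists were chosen with earlier results of these data known. Every member is named. From related lists, up to 4 called genes per direction with the largest change and 2 FPKM or more in the higher genotype's mean are named, except 1 that is not reported here. Copies were sought with blastn 2.17.0 (90% identity, 300 bases) and overlaps in GENCODE M21. The fit was run on simulated reads with the same spread in every library, so that run does not cover libraries that stand apart, as replicate 1 does here. Alternatives were a pseudocount of 0.1, other filters, TPM, quantile normalization, eBayes settings, voom on recovered reads, the replicate block and leaving out libraries.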

Additional observations from a re-analysis of the deposited data

How the results depend on the processing

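Over all genes, calls came to 1833 higher and 1445 lower in the main fit. Higher calls came to 542 in TPM, 1693 with quantile normalization and 1237 with no filter, where 28477 genes were tested. Lower calls came to 876 under a 2 FPKM filter, where 7702 genes were tested. With the replicate number as a block 479 were higher and 604 lower, and without both replicate 1 libraries 2252 were higher and 1908 lower. Leaving out single libraries gave 912 to 1681 higher and 851 to 1337 lower. Of the members, 1 was called higher with no filter, in TPM or with quantile normalization, 5 without both replicate 1 libraries, and 1 to 3 without single libraries, where 4 to 7 were called lower. With the replicate block 0 members were higher and 2, *Pmvk* and *Mylip*, lower. Whether the numbers pair the libraries is not given in the sources used here. Deviations of same-numbered KO and WT libraries correlated at -0.50, -0.19 and -0.16 over genes, and those of different-numbered ones at -0.26 to 0.36. These correlations cannot show whether same-numbered libraries were handled together. The related lists gave 4 higher in TPM, 5 higher and 4 lower with the replicate block, 4 lower under a 2 FPKM filter, 19 higher without both replicate 1 libraries, and 6 to 13 higher without single libraries. The median of LXR targets was -0.49 with a pseudocount of 0.1, -0.20 under a 2 FPKM filter, -0.52 in TPM, -0.20 with quantile normalization, -0.49 with voom, -0.066 without both replicate 1 libraries, and -0.46 to -0.093 without single libraries. The cause was not tested.

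*Pmvk* and *Mylip* kept their calls under all 16 alternatives, *Abca1* and *Idi1* under 15 (lost with the replicate block, adjusted p = 0.0676 and 0.0523). *Fdft1* lost its call in TPM (0.0518), with the block (0.0722) and without KO replicate 2 (0.0564), and *Hmgcs1* in TPM (0.088), with the block (0.0826) and without KO replicate 3 (0.0509) or WT replicate 3 (0.0501). Signs turned for members that were not called: *Srebf1* with quantile normalization (-0.023), *Insig1* in TPM (-0.060), with quantile normalization (-0.14), without both replicate 1 libraries (-0.027) and between -0.071 and 0.10 without single libraries, *Sqle* in TPM (-0.035) and between -0.13 and 0.34 without single libraries, *Lss* and *Cyp51* without both replicate 1 libraries (0.0051 and 0.028), and, without single libraries, *Nsdhl* (-0.014 to 0.27) and *Hsd17b7* (-0.030 to 0.11). No called member and none of the related genes called and rerun changed sign under these alternatives. Low reads limit *Fdps* (27 in all), *Mvk* (194) and *Acat2* (262).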
